A study of Mus musculus with 8 samples.

Results

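The 30 genes described here mark the endothelium, the single layer of cells that lines vessels. They were taken by name: 24 are markers of blood vessel endothelium and 6 (Lyve1, Prox1, Pdpn, Flt4, Ccl21a and Mmrn1) are markers of lymphatic endothelium. All 30 were found among the 52636 gene identifiers of the deposited count table, and all 30 were among the 16107 genes kept by the filter on low counts. Bulk RNA was sequenced from the colon of female C57BL/6 mice that were germ-free, lived in gnotobiotic isolators and were 6 weeks old. One group of 2 libraries came from mice gavaged with C. tropicalis MYA-3404 and one of 3 libraries from mice gavaged with C. albicans SC5314, both yeasts at 100000000 CFU. The third group held 3 control libraries, and colon was taken at day 30 in every group. Nothing in the labels ties a library to a mouse of its own, so each p-value reflects only how these libraries scatter, and that scatter could be technical. The labels also do not give the segment of colon or say whether the muscle wall was left on. In bulk tissue, fewer cells of a type and less RNA per cell cannot be told apart.

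Blood endothelium is held in a quiet or a growing state by a few signalling systems. Vascular endothelial growth factors act on receptor tyrosine kinases of the VEGF receptor family, angiopoietins act on Tek, and transcription factors of the ETS and SOX families keep up the endothelial programme. In the gut wall, fenestrated capillaries under the epithelium take up nutrients into the blood, while lymphatic vessels drain fluid and carry immune cells.

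The stretch just before the annotated start is shown for Kdr, Eng and Robo4, which are among the 5 members with the smallest adjusted p-values below and have an entry in the promoter table. ETS factors, of which the member Erg is one, read a short core sequence. The sequences are from RefSeq on GRCm38.p6, read 5′ to 3′ on the strand of the gene, with GGAAG, or CTTCC on the other strand, in capitals. GGAAG is only 1 string that holds the ETS core, so other forms of the core stay in lower case and are not counted. The windows are Kdr at chr5:75978459-75978705 on the minus strand, Eng at chr2:32646345-32646594 on the plus strand and Robo4 at chr9:37401722-37401896 on the plus strand.
Kdr: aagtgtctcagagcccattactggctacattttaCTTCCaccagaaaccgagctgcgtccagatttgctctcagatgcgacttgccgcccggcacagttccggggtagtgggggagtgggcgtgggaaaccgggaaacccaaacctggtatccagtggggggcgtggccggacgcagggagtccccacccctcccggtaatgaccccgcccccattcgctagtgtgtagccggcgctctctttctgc
Eng: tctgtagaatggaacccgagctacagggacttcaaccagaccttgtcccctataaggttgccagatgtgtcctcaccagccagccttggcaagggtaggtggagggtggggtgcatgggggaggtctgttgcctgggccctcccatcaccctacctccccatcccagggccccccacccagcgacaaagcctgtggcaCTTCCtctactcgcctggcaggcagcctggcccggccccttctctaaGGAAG
Robo4: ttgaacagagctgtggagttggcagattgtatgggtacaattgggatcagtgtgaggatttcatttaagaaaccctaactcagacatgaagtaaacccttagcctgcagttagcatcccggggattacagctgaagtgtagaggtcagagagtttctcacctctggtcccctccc
Eng held 2 matches to GGAAG, Kdr 1 and Robo4 0, the last in a shorter window of 175 bases. Of the 17 members with an entry in the promoter table, 13 (76.5%) held this string in the 250 bases before the start, against 17193 of 27025 genes in that table (63.6%). These 5 bases are common in any sequence, so a match is a description of the window and not a binding site.

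Library totals ran from 16195376 to 19761098 counts, and the 30 members together took 0.0510% to 0.0818% of each. Levels are given as CPM, the usual depth-scaled read count, here with TMM-adjusted library sizes, and a count of 0 would allow up to 0.152 to 0.185 CPM depending on the library, counting error only. No member was near that floor, and the lowest count of a member in any library was 18, for Prox1. Per kilobase of exon, Plvap, the protein of the diaphragms that close endothelial fenestrae, stood first at 80.4 CPM per kb averaged over the 8 libraries. Ccl21a, a chemokine that draws dendritic cells and T cells into lymphatics, followed at 49.6 CPM per kb, and Eng, a co-receptor of the TGF-beta family, at 15.5 CPM per kb. The other members lay lower: 26 ran from 1 to 10 CPM per kb and Prox1 stood last at 0.233 CPM per kb. Of the 29 pairs of neighbours in this order, 27 overlapped in their ranges over libraries, and the breaks came after Ccl21a and after Emcn.

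Some counts carry a limit from the annotation, since the library kit does not keep the strand. Another gene overlaps 11 of the members, and in 4 it has over 10% of the member's counts. Those are Fpgs on the other strand from Eng (5416 counts against 8914 for Eng), Gtpbp3 beside Plvap (6166 against 22685), 1700066B19Rik beside Ecscr (1604 against 767) and Agpat2 beside Egfl7 (13834 against 1902). Reads in the shared part cannot be assigned to either gene from these counts. For Ccl21a, 9 other annotated entries were read as possible copies. Of these, 7 are at 0 counts and 2 hold 162 counts together, against 6082 for Ccl21a, and transcripts of those 2 match it over 99.3% to 99.4% of their bases. Among the 7 at 0 counts, Gm21953 aligned over only 35 bases at 65.7% identity, so it is not a close copy, and entries on scaffolds were not compared. The counts of Ccl21a are therefore uncertain.

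Across libraries, the blood endothelial genes were lowest in C. tropicalis colon. Their summed level was 449 and 408 CPM in C. tropicalis libraries, 573, 762 and 670.2 CPM in C. albicans libraries and 437, 524 and 577 CPM in control libraries. Both C. tropicalis libraries lay below all 3 C. albicans libraries, while the lowest control library lay between the 2 C. tropicalis libraries. The sum of the 6 lymphatic members did not follow: they summed to 101 and 101 CPM in C. tropicalis libraries, 121, 86.5 and 97.9 CPM in C. albicans libraries and 88.3, 129 and 127 CPM in control libraries, with the groups overlapping. Another list of lymphatic genes gave a different result. All 9 of its genes tested were lower in C. tropicalis than in C. albicans. Their median log2 fold change was -0.94, against 0.04 over all genes tested. Among them, at least Ackr4 and Fgl2 are also made outside lymphatics. As a share of the blood sum, the sum of the 6 lymphatic members was 22.6% and 24.9% in C. tropicalis libraries, 21.1%, 11.3% and 14.6% in C. albicans libraries and 20.2%, 24.7% and 21.9% in control libraries. In every library Ccl21a, whose counts are uncertain, was the largest part of the lymphatic sum. Plvap, which carries the overlap with Gtpbp3, was the largest part of the blood sum. Of the 24 blood genes, 17 had their lowest level in a C. tropicalis library (11 in replicate 2 and 6 in replicate 1) and 16 their highest in a C. albicans library (12 in replicate 2 and 4 in replicate 3). The remaining 8 peaked in a control library, 7 of them in control replicate 2.

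**Figure D1:**
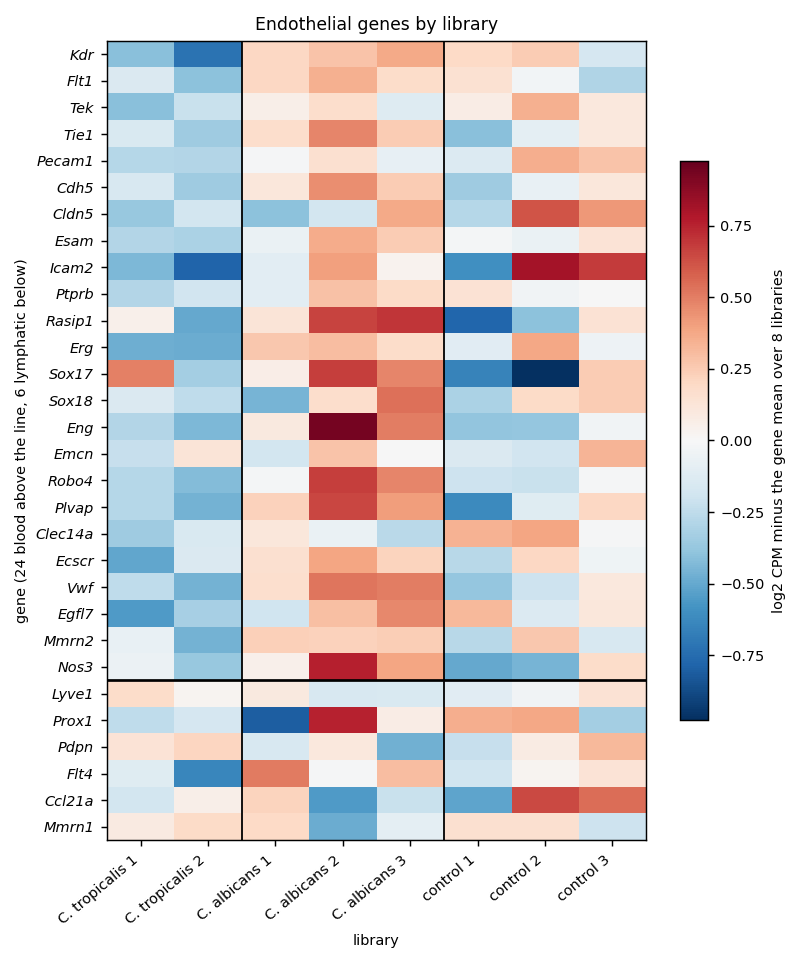
Each row is 1 of the 30 genes and each column 1 library, with colour giving log2 CPM minus that gene's mean over the 8 libraries. The C. tropicalis columns are blue for most of the 24 blood genes above the line. Below it the lymphatic genes are mixed, with Flt4 and Prox1 blue in both C. tropicalis columns. C. albicans replicate 2 holds the highest value for 12 blood genes.

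C. tropicalis colon against C. albicans colon gave the widest difference. All 24 blood endothelial genes were lower in C. tropicalis, by a median log2 fold change of -0.54 against 0.04 over all genes tested, of which 53.7% were higher. In 19 of the 24 both C. tropicalis libraries lay below all 3 C. albicans libraries, against 22.4% of all genes tested. None passed the threshold of an adjusted p of 0.05 in edgeR's quasi-likelihood test, and neither did any other gene (0%). At an unadjusted p under 0.05 there were 13, all lower, against 14.4% of all genes. DESeq2 called 5 (Kdr, Eng, Robo4, Plvap and Vwf), against 10.9% of the genes it gave an adjusted p, and limma-voom called 0 members and 0 genes. All 24 were also lower with DESeq2 size factors and with upper-quartile factors. Members share libraries, so their number is not a number of replicates.

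The comparisons of each yeast with control share the same 3 control libraries, so they are not independent of each other. In C. albicans colon 19 of the 24 lay above control, 18 with upper-quartile factors, with a median log2 fold change of 0.22 (0.20 to 0.34 with 1 library left out, highest without control replicate 2) against -0.02 over all genes tested, of which 48.2% lay above. In C. tropicalis colon 21 of the 24 lay below control, 22 with upper-quartile factors, with a median of -0.24 against -0.02 over all genes tested, of which 47.9% lay above. No member passed the test in either comparison, where edgeR called 0.0435% of genes for C. albicans and 0.031% for C. tropicalis. At an unadjusted p under 0.05 there were 8 members for C. albicans, all higher, against 9.13% of all genes, and 7 for C. tropicalis, all lower, against 8.05%. DESeq2 called 1 member, Eng, for C. albicans, where it called 3.19% of genes, and 0 members for C. tropicalis, where it called 2.68%. Groups did not overlap for 6 members in C. albicans against control, all higher (9.82% of all genes), and for 9 in C. tropicalis against control, all lower (16.5%).

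**Figure D2:**
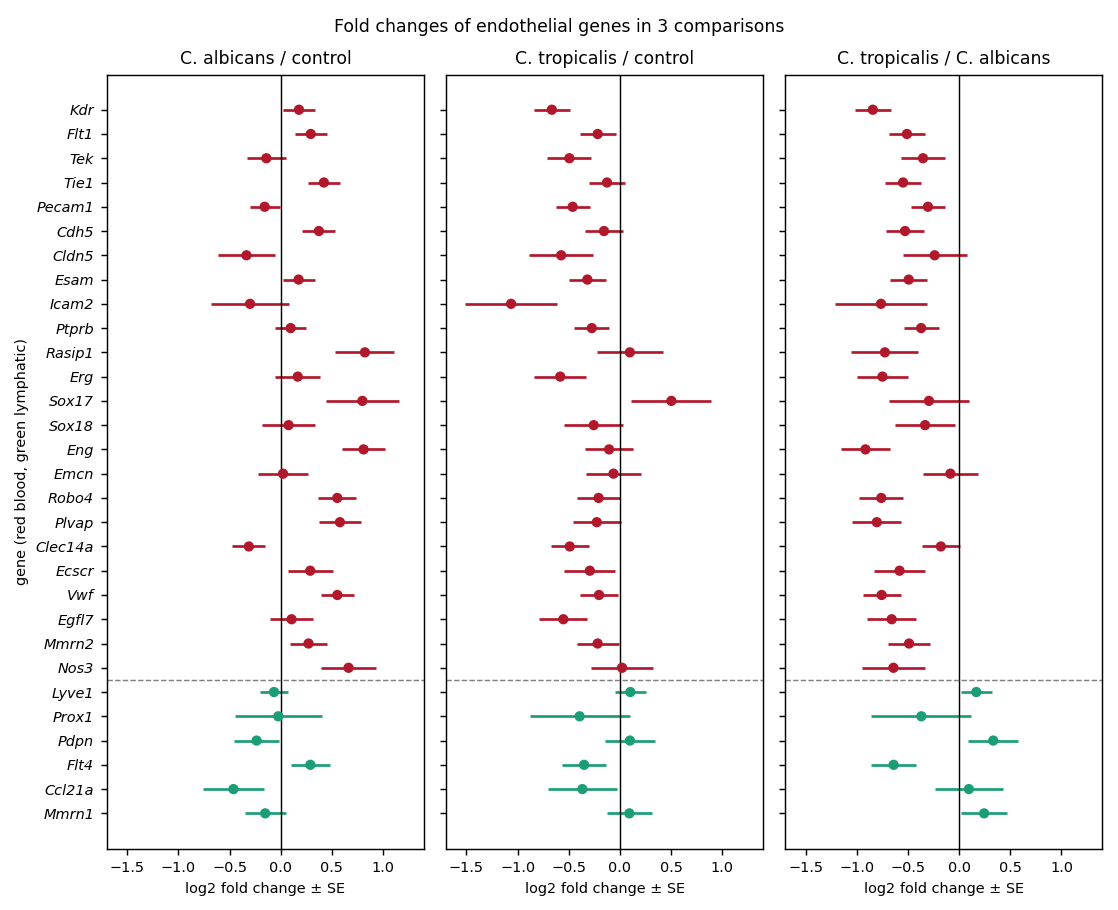
Points are log2 fold changes with bars of 1 SE from the edgeR fit of 8 libraries, for C. albicans over control, C. tropicalis over control and C. tropicalis over C. albicans, with blood genes in red and lymphatic genes in green. In the panel of C. tropicalis over C. albicans all 24 blood points lie left of 0, from -0.92 for Eng to -0.08 for Emcn, and 4 of the 6 lymphatic points lie right of it.

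Among the growth factor receptors, Kdr, the main signalling receptor for VEGF-A, set the C. tropicalis libraries apart most sharply. Its level was 15.02 and 12.1 CPM in C. tropicalis libraries, 22.9, 24.2 and 25.8 CPM in C. albicans libraries and 22.9, 23.8 and 17.8 CPM in control libraries. Both C. tropicalis libraries lay below every other library, while C. albicans and control overlapped. The log2 fold change of Kdr was -0.84 ± 0.18 (SE) in C. tropicalis against C. albicans, with an edgeR adjusted p of 0.0658 that ran from 0.00243 to 0.774 over the alternatives. Against control it was -0.67 ± 0.18 for C. tropicalis (edgeR adjusted p = 0.206) and 0.18 ± 0.15 for C. albicans. Flt1, a VEGF receptor that largely acts as a decoy, had 15.4 and 12.9 CPM in C. tropicalis, 19.5, 21.6 and 19.2 CPM in C. albicans and 18.8, 16.6 and 13.8 CPM in control libraries, so that C. albicans lay above both other groups. Tek, the angiopoietin receptor, stood at 5.14 and 5.89 CPM in C. tropicalis, 7.14, 7.72 and 6.28 CPM in C. albicans and 7.20, 8.76 and 7.37 CPM in control libraries, with C. tropicalis below every other library. Tie1, its partner without a well-established ligand of its own, had 30.5 and 26.6 CPM in C. tropicalis, 38.0, 47.0 and 40.1 CPM in C. albicans and 25.5, 31.7 and 36.2 CPM in control libraries. For Tie1, unlike Tek, it was C. albicans that stood clear of control, by a log2 fold change of 0.42 ± 0.16 (edgeR adjusted p = 0.274).

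Genes of endothelial junctions and adhesion were lower in C. tropicalis than in C. albicans in 7 of 7 cases, with a median log2 fold change of -0.49. Cdh5, the VE-cadherin that holds endothelial cells together, had 17.99 and 15.7 CPM in C. tropicalis, 21.6, 27.5 and 23.8 CPM in C. albicans and 15.7, 19.0 and 21.6 CPM in control libraries. The C. albicans libraries were highest, although their lowest value and the highest control value differed by less than the rounding shown. Pecam1, an adhesion molecule of all endothelium that platelets and leukocytes also carry, had 33.7 and 33.6 CPM in C. tropicalis, 40.5, 45.6 and 38.7 CPM in C. albicans and 37.2, 52.2 and 49.7 CPM in control libraries. Here C. tropicalis lay below every other library and C. albicans was within the control range. Esam, another junctional adhesion molecule, and Ptprb, the phosphatase VE-PTP that restrains Tek and VE-cadherin signalling, were likewise below every other library in C. tropicalis, with C. albicans and control overlapping. Esam stood at 11.2 and 11.1 CPM in C. tropicalis, 13.2, 17.7 and 16.3 CPM in C. albicans and 13.5, 13.2 and 15.1 CPM in control libraries. Ptprb stood at 12.2 and 13.1 CPM in C. tropicalis, 13.9, 18.2 and 17.0 CPM in C. albicans and 16.5, 14.5 and 14.9 CPM in control libraries.

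Cldn5, the claudin of endothelial tight junctions, and Icam2 were spread widely among the controls. Cldn5 had 8.17 and 9.35 CPM in C. tropicalis, 7.98, 9.34 and 13.7 CPM in C. albicans and 8.68, 16.3 and 14.2 CPM in control libraries, overlapping in all comparisons. Icam2, an adhesion molecule that leukocytes bind, had 2.11 and 1.64 CPM in C. tropicalis, 2.70, 3.88 and 2.99 CPM in C. albicans and 1.88, 5.18 and 4.73 CPM in control libraries. Its log2 fold change of -1.06 ± 0.45 for C. tropicalis against control, the farthest from 0 of any member there, had a 95% interval of -2.07 to -0.05 and an edgeR adjusted p of 0.310, and control replicate 1 was as low as C. tropicalis. Rasip1, a regulator of vessel lumen formation, had 7.88 and 5.33 CPM in C. tropicalis, 8.32, 12.1 and 12.4 CPM in C. albicans and 4.40, 5.72 and 8.39 CPM in control libraries, and C. albicans overlapped with control replicate 3.

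Of the transcription factors, Erg, the ETS factor that maintains endothelial identity, was lowest in C. tropicalis. It had 3.25 and 3.23 CPM in C. tropicalis, 5.51, 5.67 and 5.18 CPM in C. albicans and 4.23, 5.96 and 4.41 CPM in control libraries, and the C. tropicalis libraries lay below all others. Its log2 fold change was -0.75 ± 0.25 against C. albicans (edgeR adjusted p = 0.125) and -0.58 ± 0.25 against control (edgeR adjusted p = 0.318). Sox17, a factor of arterial endothelium, did not follow: C. tropicalis replicate 1 was among its highest libraries. It had 12.2 and 6.86 CPM in C. tropicalis, 9.05, 13.9 and 12.1 CPM in C. albicans and 5.48, 4.35 and 10.3 CPM in control libraries, and its log2 fold change against control was 0.50 ± 0.39 for C. tropicalis and 0.80 ± 0.35 for C. albicans. Sox18, which acts in both blood and early lymphatic endothelium, had 12.2 and 11.3 CPM in C. tropicalis, 9.78, 15.2 and 19.6 CPM in C. albicans and 10.9, 15.4 and 16.0 CPM in control libraries, and its groups overlapped in all 3 comparisons.

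Among the surface glycoproteins, Eng set the C. albicans libraries apart. It stood at 48.5 and 43.6 CPM in C. tropicalis, 63.2, 114 and 83.8 CPM in C. albicans and 45.2, 45.6 and 57.8 CPM in control libraries, so that every C. albicans library lay above all others. The log2 fold change of Eng was 0.81 ± 0.21 in C. albicans against control, with an edgeR adjusted p of 0.201 that ran from 0.0181 to 0.519 over the alternatives. It passed 0.05 in DESeq2 (adjusted p = 0.0181) and in edgeR without C. albicans replicate 1 (adjusted p = 0.0390, 1.58% of all genes called, log2 fold change 1.03). Against C. albicans, C. tropicalis was at -0.92 ± 0.24 (edgeR adjusted p = 0.0758). Plvap, which like Eng carries the overlap noted above, had 126 and 111 CPM in C. tropicalis, 179, 241 and 203 CPM in C. albicans and 99.8, 141 and 177 CPM in control libraries. C. albicans was again above all others, with control replicate 3 just below its lowest library, and the log2 fold change in C. tropicalis against C. albicans was -0.80 ± 0.24 (edgeR adjusted p = 0.0964).

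Robo4, a guidance receptor that stabilizes vessels, had 13.4 and 12.1 CPM in C. tropicalis, 16.0, 26.0 and 22.6 CPM in C. albicans and 14.1, 13.9 and 16.1 CPM in control libraries. C. tropicalis was below every other library, and C. albicans replicate 1 was level with control replicate 3. The log2 fold change was -0.76 ± 0.21 in C. tropicalis against C. albicans (edgeR adjusted p = 0.0869). Clec14a, a lectin-like adhesion protein of endothelium, differed from these in being lower than control in both yeast groups, at 14.4 and 16.5 CPM in C. tropicalis, 19.7, 17.5 and 15.2 CPM in C. albicans and 23.1, 23.9 and 18.1 CPM in control libraries. Both C. tropicalis libraries lay below all controls, with a log2 fold change of -0.49 ± 0.18 (edgeR adjusted p = 0.280), while C. albicans overlapped with both. Emcn, a mucin-like protein of capillaries and veins, had the smallest difference of the 24 blood genes between the yeasts, at 4.63 and 5.95 CPM in C. tropicalis, 4.78, 6.61 and 5.43 CPM in C. albicans and 4.91, 4.77 and 6.88 CPM in control libraries. Ecscr, a receptor that modulates VEGF signalling, had 3.71 and 4.82 CPM in C. tropicalis, 5.96, 6.98 and 6.22 CPM in C. albicans and 4.40, 6.14 and 5.16 CPM in control libraries, with C. tropicalis below all of C. albicans.

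All 4 secreted proteins and enzymes were lower in C. tropicalis than in C. albicans with no overlap (22.4% of all genes). Vwf, the clotting factor stored in endothelial granules and in platelets, had 21.8 and 18.8 CPM in C. tropicalis, 29.1, 37.2 and 36.7 CPM in C. albicans and 19.9, 22.5 and 27.8 CPM in control libraries. C. albicans lay above every other library, and the log2 fold change of Vwf was -0.76 ± 0.19 in C. tropicalis against C. albicans (edgeR adjusted p = 0.0700) and 0.55 ± 0.16 in C. albicans against control (edgeR adjusted p = 0.231). Nos3, the endothelial nitric oxide synthase, had 6.57 and 5.27 CPM in C. tropicalis, 7.08, 11.7 and 8.96 CPM in C. albicans and 4.80, 4.94 and 7.74 CPM in control libraries, with C. tropicalis within the control range. Egfl7, a secreted guide of vessel sprouts, was instead lowest in C. tropicalis, with 8.91 and 10.4 CPM there, 11.5, 16.1 and 18.2 CPM in C. albicans and 16.4, 11.97 and 14.2 CPM in control libraries. Mmrn2, a matrix protein that binds Clec14a, had 13.3 and 10.1 CPM in C. tropicalis, 16.5, 16.4 and 16.5 CPM in C. albicans and 11.6, 16.8 and 12.5 CPM in control libraries, so that the C. albicans libraries were nearly equal and lay within the control range.

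**Figure D3:**
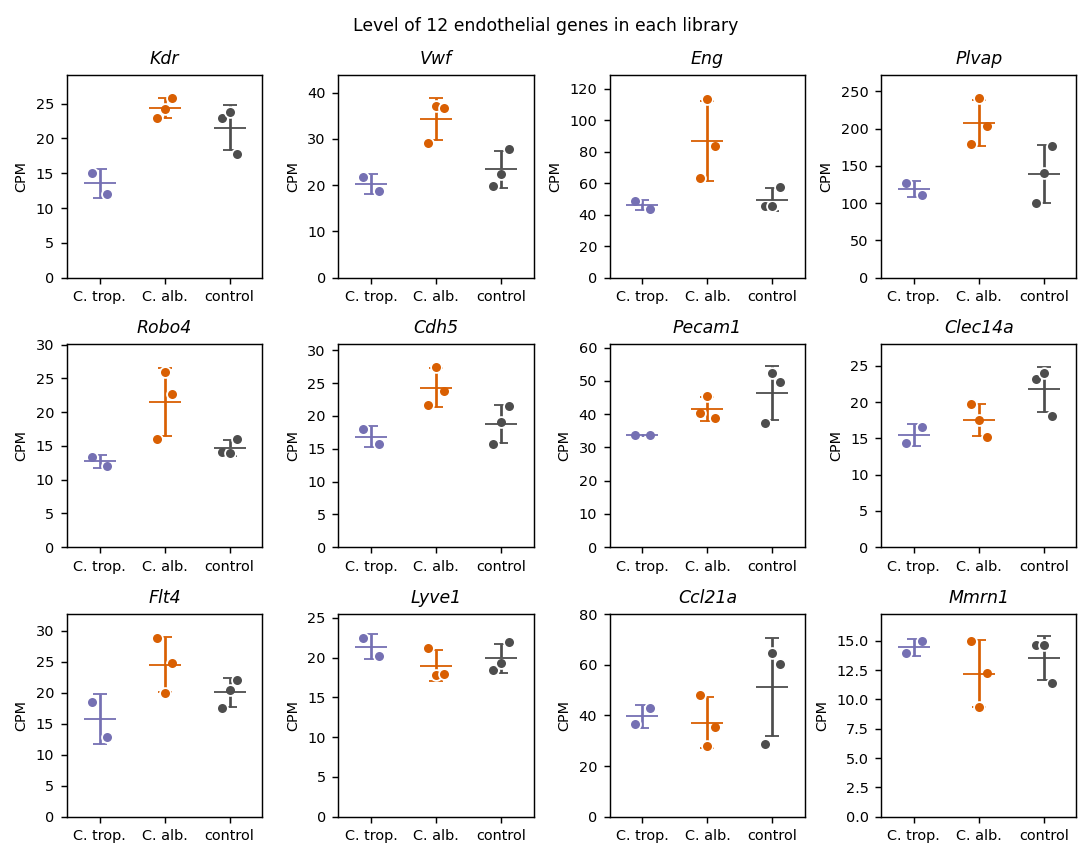
CPM of 12 endothelial genes, with 1 point per library, a line at the group mean and bars of 1 SD (C. tropicalis n = 2, C. albicans n = 3, control n = 3). Kdr, Robo4, Pecam1 and Clec14a are lowest in C. tropicalis against control with no overlap, Vwf, Eng, Plvap and Cdh5 are highest in C. albicans, and Lyve1, Ccl21a and Mmrn1 overlap throughout.

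Which blood genes passed depended on the setting. In C. tropicalis against C. albicans the smallest edgeR adjusted p-values were those of Kdr, Vwf, Eng, Robo4 and Plvap, given above, which lay between 0.0658 and 0.0964. Without the filter on low counts Kdr, Eng and Vwf passed, as did 4.18% of all genes in that fit. With only the 2 groups in the fit Kdr, Plvap and Vwf passed, and 5.47% of all genes. Leaving out C. albicans replicate 1 let Kdr, Eng, Robo4, Vwf and Egfl7 pass, with 8.2% of all genes. Leaving out control replicate 1 let Kdr, Plvap and Vwf pass (5.78% of all genes), and leaving out control replicate 3 let Kdr and Vwf pass (5.62%). Kdr and Vwf were in each of these sets, but other settings let no member pass. None passed with limma-voom, with DESeq2 size factors, with upper-quartile factors or with a filter of at least 1 CPM in 3 libraries. None passed with the replicate block or the muscle covariate, nor without C. albicans replicate 2, C. albicans replicate 3 or control replicate 2.

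For the 6 lymphatic endothelial genes the medians lay nearer to 0 than for the blood genes. In C. tropicalis against C. albicans 4 were higher and 2 lower, with a median log2 fold change of 0.13 that ran from 0.072 without C. albicans replicate 3 to 0.26 without C. albicans replicate 1, and was 0.084 without C. tropicalis replicate 2. In C. albicans against control 1 was higher and 5 lower, with a median of -0.11 that ran from -0.16 without control replicate 3 to -0.034 without C. albicans replicate 3 and was -0.066 without control replicate 2, and over all genes tested 48.2% were higher. In C. tropicalis against control 3 were higher and 3 lower, with a median of -0.13 that ran from -0.16 without control replicate 1 to -0.033 without C. tropicalis replicate 2, and was -0.041 without control replicate 2. None of the 6 passed the edgeR test or DESeq2 in any comparison. At an unadjusted edgeR p under 0.05 there was 1, Flt4, lower in C. tropicalis against C. albicans, as were 14.4% of all genes.

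Flt4, the receptor for VEGF-C that lymphatic growth needs and that fenestrated blood capillaries also carry, was the lymphatic member that behaved like the blood genes. It had 18.6 and 12.9 CPM in C. tropicalis, 28.8, 19.9999 and 24.8 CPM in C. albicans and 17.6, 20.5 and 22.1 CPM in control libraries, and both C. tropicalis libraries lay below all of C. albicans. The log2 fold change there was -0.64 ± 0.22 (edgeR adjusted p = 0.125), and 22.4% of all genes tested were likewise lower with no overlap. Lyve1, the hyaluronan receptor of lymphatic capillaries, varied little, with 22.4 and 20.2 CPM in C. tropicalis, 21.2, 17.8 and 17.9 CPM in C. albicans and 18.4, 19.4 and 21.9 CPM in control libraries. The 95% interval of its log2 fold change in C. tropicalis against C. albicans ran from -0.18 to 0.51. Some resident macrophages also express Lyve1: a list of 9 macrophage markers summed to 238 and 157 CPM in C. tropicalis, 208, 185 and 142 CPM in C. albicans and 111, 172 and 216 CPM in control libraries, overlapping. All 8 of these markers tested were higher in C. tropicalis than in C. albicans (53.7% of all genes) and than in control (47.9%). Their median log2 fold changes were 0.20 and 0.22, and their part in Lyve1 was not tested.

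Mmrn1, a protein of lymphatic endothelium and platelets, had 13.9 and 14.96 CPM in C. tropicalis, 15.01, 9.34 and 12.3 CPM in C. albicans and 14.6, 14.7 and 11.4 CPM in control libraries, with a 95% interval of -0.26 to 0.75 for the log2 fold change in C. tropicalis against C. albicans. The 5 platelet markers summed to 14.0 and 11.96 CPM in C. tropicalis, 13.8, 23.3 and 17.0 CPM in C. albicans and 14.6, 9.95 and 15.2 CPM in control libraries, overlapping between groups. Of these, Ppbp reached at most 0.114 CPM and Gp9 at most 0.0610 CPM, both at 0 counts in some libraries and not tested. Of the 3 tested, Itga2b and Gp1bb were lower and Pf4 higher in C. tropicalis than in C. albicans, each with no overlap, with a median log2 fold change of -0.99. The part of platelets in Vwf or Mmrn1 was not tested.

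Pdpn, a surface mucin of lymphatic endothelium that reticular stroma and mesothelium also make, had 8.22 and 8.67 CPM in C. tropicalis, 6.69, 8.03 and 5.37 CPM in C. albicans and 6.40, 7.92 and 9.36 CPM in control libraries. Both C. tropicalis libraries lay above all of C. albicans, as for 23.4% of all genes tested, by a log2 fold change of 0.33 ± 0.25 (edgeR adjusted p = 0.463). Ccl21a had 36.5 and 42.9 CPM in C. tropicalis, 48.0, 28.1 and 35.5 CPM in C. albicans and 28.9, 64.5 and 60.4 CPM in control libraries, overlapping throughout and widest in the controls. Lymphoid follicles and their stroma, which can express both, differed between libraries far more. The 8 genes of that list summed to 40.8 and 62.7 CPM in C. tropicalis, 37.4, 6.56 and 28.6 CPM in C. albicans and 12.3, 93.0 and 152 CPM in control libraries. Control replicate 1 and C. albicans replicate 2, lowest in that list, were also the 2 lowest for Ccl21a, and the part of follicles in Ccl21a was not tested.

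Prox1, the transcription factor that makes endothelium lymphatic, was too low for a firm reading, at 1.54 and 1.64 CPM in C. tropicalis, 1.01, 3.20 and 1.95 CPM in C. albicans and 2.40, 2.44 and 1.45 CPM in control libraries. Its log2 fold change in C. tropicalis against C. albicans had a 95% interval of -1.47 to 0.73, wide enough to hold a change of either sign. Enteroendocrine and tuft cells of the epithelium can express Prox1 as well. Their 8 markers summed to 359.9 and 342 CPM in C. tropicalis, 512, 441 and 484 CPM in C. albicans and 465, 521 and 374 CPM in control libraries, with C. tropicalis lowest, and their part in Prox1 was not tested.

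Between the yeast groups, the smooth muscle of the gut wall differed in the same direction as the blood endothelial genes and by a wider margin. Its 15 markers summed to 4678 and 6181 CPM in C. tropicalis libraries, 11504, 33259 and 18719 CPM in C. albicans libraries and 15835, 12994 and 8225 CPM in control libraries. Within groups the order of libraries differed. In C. albicans it was the same for muscle and the blood sum, with replicate 2 highest and replicate 1 lowest. In C. tropicalis replicate 1 was lower for muscle and higher for the blood sum. Among the controls replicate 1 was highest for muscle and lowest for the blood sum. All 15 muscle markers were lower in C. tropicalis than in C. albicans with no overlap (22.4% of all genes), by a median log2 fold change of -1.79, and none passed the edgeR test. Pericytes, the contractile cells wrapped around capillaries, summed to 154 and 149 CPM in C. tropicalis, 243, 648 and 374 CPM in C. albicans and 401, 249 and 191 CPM in control libraries over 9 markers. Fibroblast markers (11 genes) summed to 1538 and 1286 CPM in C. tropicalis, 2194, 3314 and 2263 CPM in C. albicans and 1910.2, 1697 and 1984 CPM in control libraries, again with C. tropicalis lowest. With the mean log2 level of those 15 genes entered in the fit as a score, which was itself lowest in both C. tropicalis libraries, 22 of 24 blood genes were lower in C. tropicalis than in C. albicans, with a median log2 fold change of -0.47. Kdr was then at -0.61 ± 0.30, Vwf at -0.80 ± 0.33, Eng at -0.50 ± 0.38, Plvap at -0.95 ± 0.41 and Robo4 at -0.37 ± 0.35 (SE), all with an edgeR adjusted p above 0.05. The lymphatic median turned to -0.10 under that covariate. Since the score follows the group, the 2 cannot be fully told apart in that fit, and the part of muscle in the blood results was not tested.

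**Figure D4:**
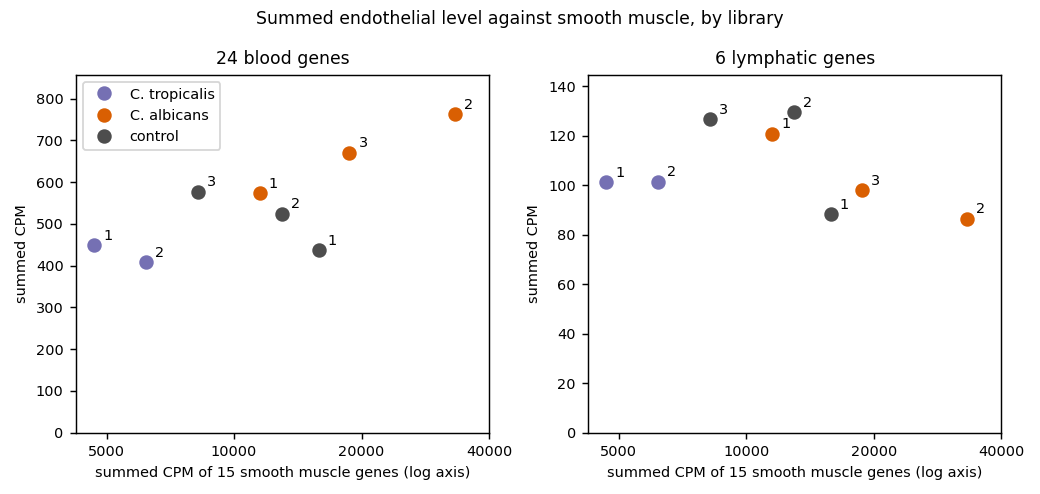
Summed CPM of the 24 blood genes (left) and the 6 lymphatic genes (right) against the summed CPM of 15 smooth muscle genes on a log axis, with 1 numbered point per library. The C. tropicalis libraries are lowest on both axes for the blood genes except for control replicate 1, whose blood sum lies between theirs, and the lymphatic sum shows no such order.

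Of 9 markers of colon epithelium, read as a check of the tissue label, all had counts in 7 of the 8 libraries, and 1, Fxyd4, was at 0 counts in C. albicans replicate 2. Their levels were not alike. Car1, a carbonic anhydrase of colon epithelium, had 2231 and 2255 CPM in C. tropicalis, 306, 432 and 179.5 CPM in C. albicans and 243, 388 and 1602 CPM in control libraries. Cdx2, a homeobox factor of intestinal identity, ran the other way, at 26.3 and 28.6 CPM in C. tropicalis, 224, 470.1 and 378 CPM in C. albicans and 339, 192 and 26.9 CPM in control libraries. Control replicate 3 was thus nearer to C. tropicalis than to the other controls in both. Hoxd10, one of the Hox genes that mark position along the body axis, had 8.17 and 5.27 CPM in C. tropicalis, 1.24, 0.157 and 1.22 CPM in C. albicans and 0.914, 1.13 and 5.38 CPM in control libraries, with control replicate 3 again beside C. tropicalis. The part of the position along the colon in the endothelial results was not tested. Red cell markers, a sign of blood left in vessels, overlapped between groups, with 5 genes summing to 21.8 and 39.8 CPM in C. tropicalis, 36.8, 11.97 and 37.6 CPM in C. albicans and 12.9, 9.71 and 41.0 CPM in control libraries.

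Vascular growth ligands were described from a list of 10, not all of which act on receptors among the members. In C. tropicalis against C. albicans 9 of 10 were lower and 7 did not overlap (all lower, against 22.4% of all genes). In C. albicans against control 5 were higher and 5 lower. Groups did not overlap there for 4 higher (9.82% of all genes) and 2 lower. In C. tropicalis against control 3 were higher and 7 lower, and 4 did not overlap, all lower (16.5%). None passed the edgeR test in any comparison. Vegfa, the ligand of Kdr and Flt1, had 175 and 173 CPM in C. tropicalis, 218, 189 and 297 CPM in C. albicans and 179.8, 137 and 126 CPM in control libraries. C. albicans was above every other library, with a log2 fold change of 0.67 ± 0.20 against control (edgeR adjusted p = 0.231), while C. tropicalis lay within the control range. Vegfb had 29.8 and 29.4 CPM in C. tropicalis, 37.7, 58.6 and 47.6 CPM in C. albicans and 28.4, 32.8 and 40.1 CPM in control libraries, and Vegfc, the ligand of Flt4, 6.97 and 8.50 CPM in C. tropicalis, 8.66, 4.93 and 5.85 CPM in C. albicans and 4.97, 9.29 and 10.6 CPM in control libraries. Vegfc overlapped throughout, as did the lymphatic sum.

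Low ligands gave the widest folds. Apln, the peptide made by sprouting tip cells, had 1.08 and 0.623 CPM in C. tropicalis, 3.15, 3.31 and 4.45 CPM in C. albicans and 1.60, 1.97 and 1.51 CPM in control libraries, so that every C. albicans library lay above and every C. tropicalis library below the controls. Its log2 fold change was -2.08 ± 0.38 in C. tropicalis against C. albicans (edgeR adjusted p = 0.0646). Its receptor Aplnr had 2.06 and 2.15 CPM in C. tropicalis, 3.26, 6.82 and 4.69 CPM in C. albicans and 3.88, 4.47 and 4.14 CPM in control libraries, with C. tropicalis below every other library. Angptl4, an inhibitor of lipoprotein lipase that also acts on vessels, was lower than control with no overlap in both yeast groups, at 0.514 and 0.680 CPM in C. tropicalis, 1.24, 1.73 and 0.915 CPM in C. albicans and 4.06, 2.08 and 4.63 CPM in control libraries. Its log2 fold change was -2.57 ± 0.49 for C. tropicalis (edgeR adjusted p = 0.135) and -1.46 ± 0.39 for C. albicans (edgeR adjusted p = 0.203). Adipocytes also make Angptl4, and 6 adipocyte markers summed to 11.4 and 30.8 CPM in C. tropicalis, 41.3, 106 and 40.9 CPM in C. albicans and 29.2, 52.4 and 109.6 CPM in control libraries, whose part was not tested. Angpt1, the Tek agonist made by perivascular cells, had 0.457 and 0.453 CPM in C. tropicalis, 0.899, 1.42 and 1.10 CPM in C. albicans and 1.31, 1.61 and 1.02 CPM in control libraries, and Pgf, a ligand of Flt1, 0.228 and 0.453 CPM in C. tropicalis, 1.07, 0.577 and 0.915 CPM in C. albicans and 1.26, 1.49 and 1.13 CPM in control libraries. Both were lowest in C. tropicalis, and Pgf was also lower in C. albicans than in control with no overlap. Adm, the vessel-dilating peptide adrenomedullin, had 7.59 and 8.33 CPM in C. tropicalis, 8.49, 12.4 and 10.2 CPM in C. albicans and 5.60, 7.98 and 4.46 CPM in control libraries, with C. albicans highest. Angpt2, the antagonist of Angpt1, overlapped throughout, and Vegfd, a ligand of Flt4, reached at most 2.04 CPM.

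Other endothelial genes were read from 5 further lists, in none of which a gene passed the edgeR test in any comparison. Of 20 other pan-endothelial and capillary markers, 17 were lower and 3 higher in C. tropicalis than in C. albicans, with a median log2 fold change of -0.37. Cd300lg, a surface protein of capillary and high endothelium, was lowest in C. tropicalis, at 6.85 and 5.61 CPM there, 12.5, 15.2 and 13.0 CPM in C. albicans and 10.9, 11.4 and 13.3 CPM in control libraries, and its edgeR adjusted p was 0.0646 in C. tropicalis against C. albicans. Tspan7, a tetraspanin that is not limited to endothelium, ran the other way, at 151 and 147 CPM in C. tropicalis, 83.0, 70.3 and 62.6 CPM in C. albicans and 61.0, 85.8 and 101 CPM in control libraries. Of 14 other endothelial transcription factors, 12 were lower in C. tropicalis than in C. albicans, with a median of -0.39. Klf4, which endothelium shares with the far more abundant epithelium, was above control with no overlap in both yeast groups, at 1551 and 1105 CPM in C. tropicalis, 1668, 1418 and 1592 CPM in C. albicans and 851, 964 and 813 CPM in control libraries.

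Of 16 other endothelial receptors and signalling genes, 11 were lower and 5 higher in C. tropicalis than in C. albicans. Ednrb, an endothelin receptor, had 5.37 and 5.89 CPM in C. tropicalis, 9.72, 9.87 and 9.02 CPM in C. albicans and 7.14, 6.31 and 5.38 CPM in control libraries, with C. albicans highest. Nrp2, the VEGF-C co-receptor that is also made outside vessels, was at 53.8 and 52.7 CPM in C. tropicalis, 110.3, 169 and 139 CPM in C. albicans and 140.2, 106 and 61.3 CPM in control libraries, and C. tropicalis was below every other library. Genes of activated and venular endothelium showed no common direction: of 8 listed, 6 were tested, and 3 were higher and 3 lower in C. tropicalis than in C. albicans. Madcam1, the addressin that guides lymphocytes into gut tissue, had 5.94 and 5.61 CPM in C. tropicalis, 4.61, 2.47 and 4.45 CPM in C. albicans and 2.57, 8.76 and 11.6 CPM in control libraries, widest in the controls as Ccl21a was.

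Of the 10 other lymphatic genes 9 were tested. All 9 were lower in C. tropicalis than in C. albicans, with a median log2 fold change of -0.94 against 0.04 over all genes tested. All 9 were also higher in C. albicans than in control, with a median of 0.43 against -0.02 over all genes tested. Ackr4, a scavenger receptor for Ccl21, had 6.51 and 5.78 CPM in C. tropicalis, 15.6, 22.7 and 21.8 CPM in C. albicans and 21.2, 17.9 and 8.12 CPM in control libraries. Fgl2, a prothrombinase-like secreted protein, had 13.8 and 13.3 CPM in C. tropicalis, 25.5, 39.4 and 29.9 CPM in C. albicans and 44.4, 25.9 and 14.3 CPM in control libraries. For both, C. tropicalis lay below every other library. Both are also made outside lymphatics, and the part of other cells in them was not tested. Foxc2, a factor of lymphatic valves, was low, at 0.799 and 0.850 CPM in C. tropicalis, 0.843, 1.89 and 2.50 CPM in C. albicans and 0.400, 0.477 and 1.08 CPM in control libraries, and overlapped.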

How the data were processed

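The authors' deposited table holds raw counts, whole numbers of reads per Ensembl gene and library, with no normalization. TopHat2 2.0.12, HTSeq (version written 6.1), DESeq 1.18.0 and mm10 are named per the submitters' processing notes. The kit, NEBNext Ultra RNA, does not keep the strand per the labels' protocols. The strand setting of the counting is not given in the sources used here. GENCODE M21 gave the symbols.

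Counts were fitted in edgeR 4.0.16 (R 4.3.3) with TMM factors, filterByExpr and 1 quasi-likelihood fit of the 3 groups with 5 residual degrees of freedom. P-values were adjusted by Benjamini-Hochberg over 16107 genes, threshold 0.05. SE is the log2 fold change divided by the square root of F. No pair of libraries agreed within sampling noise, so all 8 were kept. The code was tested on simulated data. Alternatives used DESeq2 1.42.0, limma 3.58.1 (voom), other factors and filters, a replicate block, a muscle covariate and each library left out.

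The members and gene lists were chosen with earlier results of these data known, so lists were not tested and are given as counts and medians. All members are named. From other endothelial lists at most the 3 genes with the smallest p against control are named, and all ligands may be.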

Additional observations from a re-analysis of the deposited data

Results flagged for a closer look

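Apln, the ligand of Aplnr, stood out because every C. albicans library lay above and every C. tropicalis library below the controls. The difference between the yeasts was itself tested: its log2 fold change was -2.08 ± 0.38 (SE) in C. tropicalis against C. albicans, with an edgeR adjusted p of 0.0646, which misses 0.05. The highest level was 4.45 CPM. Groups of 2 or 3 libraries were too small for a check of single outlying libraries.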

How the results depend on the processing

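Of 1620 log2 fold changes of members under the alternatives, 1544 kept their direction and their side of the threshold, 28 newly passed it and 48 changed sign. With 0 members called by edgeR in each comparison, none had a call to lose. Counts of genes called moved far more than the members. For C. albicans against control, where edgeR called 7 genes, DESeq2 called 464, no filter on low counts 119, the replicate block 0, the muscle covariate 17, a threshold of 0.1 gave 43, and leaving out 1 library gave 0 to 254 (the most without C. albicans replicate 1). For C. tropicalis against control, where edgeR called 5 genes, these counts were 389, 71, 0, 0, 10 and 0 to 192, and a fit of only the 2 groups called 0. For C. tropicalis against C. albicans, where edgeR called 0, DESeq2 called 1753, no filter 1127, only the 2 groups 858, a threshold of 0.1 gave 1481 and leaving out 1 library 0 to 1315. Members called there were 5 with DESeq2, 3 with no filter, 3 with only the 2 groups, 5 at 0.1 and 0 to 5 with 1 library left out. For C. albicans against control 1 member was called with DESeq2 and 0 to 1 with 1 library left out.

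Replicate numbers did not pair the libraries: deviations of same-numbered libraries correlated from -0.39 to 0.16. With the replicate block 0 members were called in each comparison, and Emcn turned to 0.013 in C. tropicalis against control. Upper-quartile factors turned Emcn to -0.027 for C. albicans and Nos3 to -0.052 for C. tropicalis, both against control.

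With the muscle covariate, log2 fold changes for C. albicans against control turned to -0.064 for Ptprb, -0.022 for Emcn, -0.095 for Egfl7 and 0.078 for Lyve1. For C. tropicalis against control they turned to -0.016 for Rasip1, 0.11 for Eng, 0.0016 for Robo4, -0.10 for Lyve1, 0.61 for Prox1 and -0.083 for Mmrn1. For C. tropicalis against C. albicans they turned to 0.0053 for Ptprb, 0.0074 for Emcn, -0.18 for Lyve1, 1.42 for Prox1, -0.87 for Ccl21a and -0.026 for Mmrn1, and the lymphatic median was -0.10. The cause was not tested.

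With 1 library left out, these changed sign. For C. albicans against control, Sox18 ran from -0.14 to 0.34, Emcn from -0.11 to 0.21, Egfl7 from -0.011 to 0.31, Lyve1 from -0.12 to 0.0092, Prox1 from -0.50 to 0.34 and Mmrn1 from -0.30 to 0.0090. For C. tropicalis against control, Rasip1 ran from -0.21 to 0.38, Eng from -0.18 to 0.020, Emcn from -0.25 to 0.13, Nos3 from -0.14 to 0.28, Pdpn from -0.034 to 0.24 and Mmrn1 from -0.019 to 0.15. For C. tropicalis against C. albicans, Sox17 ran from -0.77 to 0.064, Emcn from -0.28 to 0.087, Prox1 from -0.73 to 0.11 and Ccl21a from -0.074 to 0.29. The lymphatic median there kept its sign and ran from 0.072 to 0.26. Where 1 C. tropicalis library was left, it was assumed to vary like the other groups. By longest transcript in place of all exons, 12 of 30 levels per kilobase moved by more than their SD over the 8 libraries, and ranks shifted by up to 5.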
